A study of Drosophila melanogaster with 9 samples.

Results

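Long noncoding RNAs that progenitor cells of the adult Drosophila melanogaster intestine express were described across swm RNAi and control progenitors. They were also described across Swm immunoprecipitates and a total lysate of whole intestines. A gene was taken as a member when its name in the count table marks it as a long noncoding RNA and its mean reached 2 CPM (counts scaled to a common library size, by the raw library total in this rule and in raw means, and by TMM elsewhere) in either progenitor group. lncRNA:CR40469 was left out by that rule. This gave 177 members of 1916 long noncoding RNA rows, in tables of 17806 genes. Of the 177, 116 reached the level in both groups, 31 only with swm RNAi and 30 only in the control. The members were thus chosen by their level in the progenitor libraries, and how many of them differ between the progenitor groups is a description and nothing is read from it. The CLIP-seq libraries played no part in the choice.

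RNA-seq of sorted intestinal progenitors came from 3 libraries of genotype swm RNAi (titled swm, treated by knocking Swm down) and 3 control libraries (titled esgTS, genotype WT), each from 100 adult females and 30000 to 50000 GFP-positive cells. esgTS is the usual name of a temperature-sensitive driver under escargot control, which is active in these progenitors; the labels do not give the RNAi line, the temperature, the time or the age of the flies. CLIP-seq of all intestinal cells, genotype WT, gave 2 Swm IP libraries, taken with beads that carry antibody to Swm, and 1 input library from the total lysate. RNA-seq libraries held 14627251 to 19962224 counts, the Swm IP libraries 2451369 and 8497190 and the input 4615623.

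Long noncoding RNAs are transcripts longer than the classical small RNAs and without a recognised protein product. Some act as RNA, such as the roX RNAs, which carry the dosage compensation complex to the male X chromosome, or Hsromega, whose nuclear transcripts gather hnRNP proteins in the omega speckles. Others are precursors from which microRNAs are cut, and many lie inside or antisense to coding genes and have no known role. Swm is an RNA-binding protein. Its human relatives RBM26 and RBM27 associate with the machinery that hands polyadenylated nuclear RNA to the exosome, the complex that degrades RNA from its 3′ end.

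Progenitor markers were abundant in all libraries, and so were some markers of other cells. The 12 progenitor markers, esg and Dl among them, summed to 7389 to 8928 CPM with swm RNAi and 6186 to 9194 CPM in the control. Enterocyte markers summed to 878 to 2108 CPM with swm RNAi and 587 to 1010 CPM in the control, and visceral muscle markers to 4018 to 6873 CPM with swm RNAi and 2374 to 9681 CPM in the control. Enteroendocrine markers, with Dh31 at 0 throughout, summed to 9.71 to 23.9 CPM with swm RNAi and 11.7 to 32.3 CPM in the control, and neuronal markers to 121 to 153 CPM with swm RNAi and 47.1 to 168 CPM in the control. Of the 12 ovary and germline markers, 7 were tested and 1 was called: piwi, at 1294, 764 and 487 CPM with swm RNAi and 54.0, 34.0 and 50.1 CPM in the control (log2 fold change 4.20, SE 0.38, edgeR adjusted p = 0.000432). Without piwi, the 11 others summed to 5.82, 11.1 and 15.1 CPM with swm RNAi and 7.77, 19.8 and 14.7 CPM in the control, which overlap. Hemocyte, fat body and Malpighian tubule markers summed to at most 7.22 CPM in any progenitor library, with Lsp2 and Uro at 0. The swm transcript read 159, 136 and 135 CPM with swm RNAi and 159, 116 and 157 CPM in the control, so the deposited counts do not show the knockdown. The part of these differences in the results below was not tested, and effects of RNA interference cannot be told apart from those of a fly line's background. In sorted cells, fewer cells of a type and less RNA per cell also cannot be told apart.

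The members were mostly scarce and often inside other genes. Their exons covered a median of 864 bases (201 to 21710), against 601 bases in the other long noncoding RNA rows. A single exon was annotated for 87 of 177 (49.2%), against 67.8% of those other rows. On the BDGP6 annotation 113 members (63.8%) lay wholly within the span of another gene, against 22.3% of the other rows: 33 on the same strand as that gene and 80 on the opposite one. A further 21 overlapped a gene in part and 43 stood apart. They were spread over 3R (48 members), 3L (43), 2L (31), 2R (31), X (22) and 4 (2). The member nearest above the threshold, CR43912, had raw means of 1.96 CPM with swm RNAi and 2.03 CPM in the control. CR43612, just below it, had 1.07 CPM with swm RNAi and 1.98 CPM in the control.

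A few RNAs supplied nearly all of the member counts. Over the 6 libraries 132 members averaged under 10 CPM, 38 lay between 10 and 100 CPM and 7 reached 100 CPM, with a median of 4.08 CPM. Members took 1.74%, 2.07% and 1.82% of the swm RNAi libraries and 2.01%, 2.21% and 1.76% of the control libraries. The 3 most abundant of them held 86.2% to 87.9% of those counts with swm RNAi and 88.9% to 89.3% in the control.

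CR34335 stood far above every other member. It is an RNA of 361 bases in 1 exon on X (3545750 to 3546110, minus strand, BDGP6), within DIP-alpha on the same strand. Its counts gave 11496, 12632 and 11099 CPM with swm RNAi and 8999, 14603 and 10070 CPM in the control. The groups overlapped, with control replicate 2 the highest library and control replicate 1 the lowest. Per length it averaged 32528 RPKM (CPM scaled by exon length) with swm RNAi and 31092 RPKM in the control, while the next member, CR42862, averaged 498 RPKM with swm RNAi and 464 RPKM in the control. The median member averaged 5.34 RPKM over the 6 libraries. The log2 fold change of CR34335 was 0.07 (SE 0.20, edgeR adjusted p = 0.955), and its sign turned under other scalings.

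Hsromega was second by CPM. This RNA of the heat shock locus, the scaffold of the omega speckles, spans 21710 bases on 3R (21296127 to 21317836, plus strand). It had 2254, 2470 and 1973 CPM with swm RNAi and 5418, 2071 and 3243 CPM in the control. Control replicate 1 was more than any other library, and control replicate 2 fell among the swm RNAi libraries, so the groups overlapped (log2 fold change -0.68, SE 0.30, edgeR adjusted p = 0.401). CR42862 (3L, 224106 to 230964, plus strand) had 2166, 3355 and 2678 CPM with swm RNAi and 3505, 2072 and 2054 CPM in the control, again overlapping. The alphagamma-element RNA (3R, 12475336 to 12478267, minus strand), a transcript of the Hsp70 region that heat induces, had 266, 211 and 372 CPM with swm RNAi and 144, 394 and 241 CPM in the control. CR42549, within mura on the same strand, had 117, 152 and 163 CPM with swm RNAi and 179, 146 and 117 CPM in the control. None of these abundant RNAs passed the test between the groups.

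**Figure D1:**
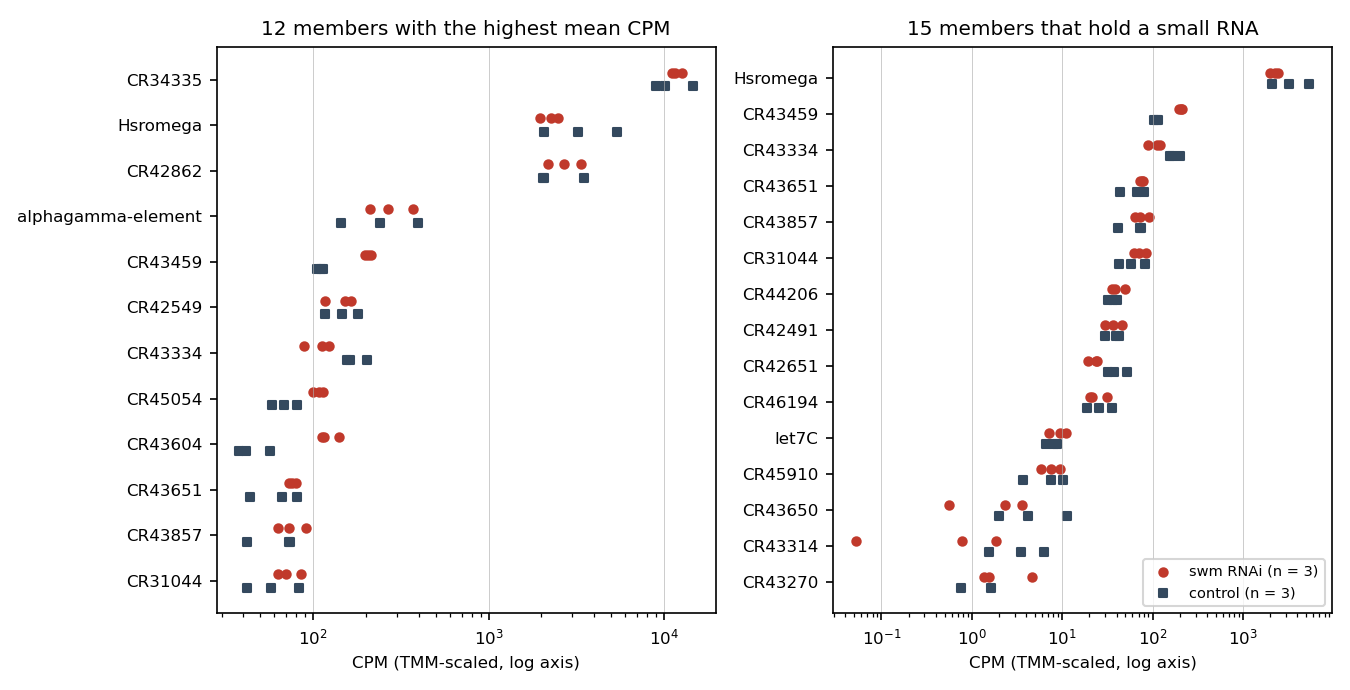
TMM-scaled CPM on a log axis in each swm RNAi (circles) and control (squares) library, for the 12 members with the highest mean CPM (left) and the 15 members that hold a small RNA (right). CR43459 and CR43604 sit apart between the groups, while CR34335, Hsromega and CR42862 overlap. CR43270 is at 0 CPM in control replicate 3, which a log axis cannot show.

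Among the scarcer members the libraries of a group scattered widely, and more so in the control. For members under 10 CPM the median coefficient of variation was 39.9% with swm RNAi and 63.3% in the control, and for those between 10 and 100 CPM it was 17.4% with swm RNAi and 32.0% in the control. Only 1 member had a swm RNAi library at 0 beside another of its group at 2 CPM or more. In the control 11 did, 10 of them at 0 in control replicate 3. That library detected 8677 genes, against 9361 and 10827 in the other controls and 10091 to 11084 with swm RNAi. noe (3L, 17400272 to 17401348, minus strand, within blot) was also low in control replicate 3, though not at 0. It read 9.12, 9.71 and 13.8 CPM with swm RNAi and 9.96, 4.65 and 0.147 CPM in the control. Its groups overlapped, with control replicate 3 far below the rest.

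Between the progenitor groups 6 of 176 members tested were called, 5 higher and 1 lower with swm RNAi (threshold of 0.05 on the edgeR adjusted p over all 8899 genes). That is 3.41% of members, beside 3.17% of all genes; by direction 2.34% of all genes were called higher and 0.832% lower. CR46409 did not pass the filter on low counts. An unadjusted p below 0.05 was found for 14.8% of the members and 12.4% of all genes. The median log2 fold change was 0.11 for members and 0.03 for all genes, and 132 of 176 members lay within 1 either way. Groups did not overlap in 29 members that were higher (16.5%, beside 12.3% of all genes) and 11 that were lower (6.25%, beside 7.94%); over both directions this held for 20.2% of all genes.

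CR45517 rose, with the smallest p of the members. It is a single exon of 774 bases on X (5428483 to 5429256, plus strand) that overlaps no other gene. It had 79.0, 89.2 and 79.9 CPM with swm RNAi and 27.3, 28.1 and 22.5 CPM in the control. Every swm RNAi library was well above every control library, with little spread in either group. The means were 82.7 ± 5.63 CPM with swm RNAi and 26 ± 3.01 CPM in the control (SD, n = 3 each; log2 fold change 1.67, SE 0.17, edgeR adjusted p = 0.000280).

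CR43604 rose to 123 ± 15.2 CPM with swm RNAi, against 45.2 ± 9.90 CPM in the control (SD, n = 3 each). It is an RNA of 201 bases in 1 exon on 2L (8485725 to 8485925, plus strand), on the same strand as dachs and inside it, with no exonic base shared. Its libraries read 140, 113 and 115 CPM with swm RNAi and 37.9, 41.3 and 56.5 CPM in the control, without overlap. The log2 fold change was 1.44 (SE 0.19, edgeR adjusted p = 0.00154). dachs, which encodes an atypical myosin of the Fat pathway and is listed as d, was not called: its mean was 0.669 ± 0.581 CPM with swm RNAi and 1.29 ± 1.79 CPM in the control (log2 fold change -0.94, SE 1.84, edgeR adjusted p = 0.923).

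CR43459, from whose span the microRNAs mir-277 and mir-34 come, also rose. It runs over 7596 bases of 3R (10093761 to 10101356, plus strand) apart from other genes. It had 214, 206 and 196 CPM with swm RNAi and 104, 111 and 114 CPM in the control. The groups were tight and far apart (log2 fold change 0.90, SE 0.15, edgeR adjusted p = 0.00614). CR45054 ends 3235 bases upstream of it on the same strand (10083381 to 10090525). It read 113, 108 and 99.4 CPM with swm RNAi and 81.0, 68.5 and 58.2 CPM in the control, also without overlap, and missed the threshold, with an edgeR adjusted p = 0.0827 (log2 fold change 0.63, SE 0.17).

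The 3 other called members were present in 1 group and nearly or wholly absent from the other, and the level in that group is what made each of them a member. CR46123 (3R, 1366234 to 1366601, minus strand), within Myo81F on the opposite strand, had 0 counts in each swm RNAi library and 17.6, 12.4 and 2.95 CPM in the control, 657 counts in all. It was at least 174-fold lower with swm RNAi, taking 3 counts over the group as the floor. Control replicate 3 was the lowest of the controls by a wide margin, and Myo81F itself had 0 counts in all 6 libraries. CR44458 (2R, 15371695 to 15372595, plus strand) had 7.01, 3.34 and 3.78 CPM with swm RNAi, 219 counts in all, and 0 counts in the control, at least 91.9-fold higher; it overlaps CR44459, which had 0 counts in all 6 libraries. CR44525 (3L, 7408493 to 7409707, minus strand) had 1.82, 6.79 and 4.20 CPM with swm RNAi and 0, 0.0490 and 0 CPM in the control, 217 counts against 1, a ratio of 273 (exact 95% interval 48.5 to 10839, counting error only). Their edgeR adjusted p values were 0.00264, 0.0108 and 0.0168. CR44458 lost the call without swm RNAi replicate 1 (adjusted p = 0.115). CR44525 lost it without swm RNAi replicate 2 (0.214) or 3 (0.0865), and did not pass the filter at a minimum count of 50. The other 4 calls held in each of the 16 fits made, the 1 given here included.

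**Figure D2:**
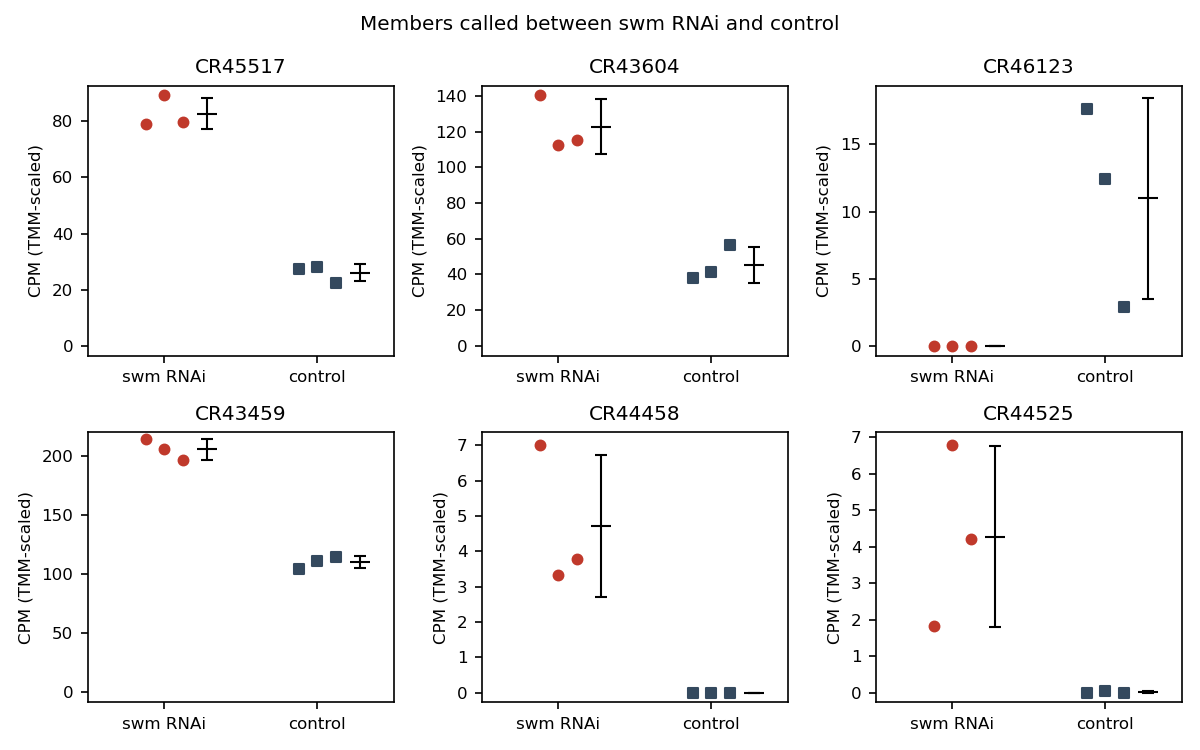
TMM-scaled CPM of the 6 members called between swm RNAi (circles, left in each panel) and control (squares, right), 1 point per library, with the mean and SD beside the points (n = 3 each) and a separate linear axis per panel. CR45517, CR43604 and CR43459 are present in both groups and higher with swm RNAi, CR44458 and CR44525 are at or near 0 in the control, and CR46123 is at 0 with swm RNAi.

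A further 20 members had groups that did not overlap and a fitted log2 fold change of 1 or more in size, without passing the test, beside 4.98% of all genes. Of the 20, 12 had become members by their level with swm RNAi alone and 1 by its level in the control alone, a choice that favours groups that do not overlap. CR44953 (3R, 29755190 to 29759040, minus strand) had 7.22, 6.47 and 8.80 CPM with swm RNAi and 0, 1.08 and 0.0491 CPM in the control (edgeR adjusted p = 0.115). CR43753 had 1.40, 3.03 and 2.06 CPM with swm RNAi, 108 counts, and 2 counts over the control libraries, a ratio of 68.0 (18.4 to 568). CR43144 had 17.0, 12 and 10.9 CPM with swm RNAi and 0.307, 4.56 and 2.11 CPM in the control. In each of these the lowest swm RNAi library was above the highest control library. CR46204 and CR44809 had 6.03, 2.25 and 3.23 CPM and 2.74, 4.39 and 1.03 CPM with swm RNAi, and at most 0.441 and 0.343 CPM in a control library. CR44547 was on the other side, at 1.05, 0.888 and 0.275 CPM with swm RNAi and 5.42, 2.20 and 5.94 CPM in the control (edgeR adjusted p = 0.208). Each of the RNAs just named had a DESeq2 adjusted p below 0.05 in the authors' deposited results. Others of the 20 did not, such as CR32027 (0.0755) and CR45668 (0.193).

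The members that hold small RNAs had fold changes on both sides of 0. There were 15 (8.48% of members, against 1.32% of the other long noncoding RNA rows): 14 hold microRNAs and CR42491, within RpL22, holds the small nucleolar RNA Psi18S-531. Beside CR43459, no host passed the test in the main edgeR fit. CR43334, which spans 15466 bases of 3L (628435 to 643900, plus strand) and holds mir-ban, the growth-promoting microRNA bantam, had 88.0, 122 and 112 CPM with swm RNAi and 162, 156 and 202 CPM in the control. Its groups did not overlap, with swm RNAi lower (log2 fold change -0.69, SE 0.18, edgeR adjusted p = 0.0787). CR43334 was called in 4 of the 16 fits made, DESeq2 among them. In the authors' deposited results it was also lower (-0.72, DESeq2 adjusted p = 0.0186). CR42651, which holds mir-10 of the Antennapedia complex, read 23.8, 24.4 and 19.3 CPM with swm RNAi and 37.3, 51.8 and 31.8 CPM in the control, likewise apart and short of the threshold (-0.84, SE 0.23, adjusted p = 0.0963). Counts over a host are not a measure of the mature microRNA.

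Several other hosts overlapped between the groups. CR43651 with mir-14, which restrains cell death, had 72.7, 79.3 and 76.0 CPM with swm RNAi and 66.6, 80.7 and 43.8 CPM in the control. CR43857 with mir-275 had 90.3, 72.9 and 63.2 CPM with swm RNAi and 72.3, 74.0 and 41.8 CPM in the control. CR31044 with mir-279 and mir-996 had 62.7, 84.8 and 70.0 CPM with swm RNAi and 57.6, 82.6 and 42.0 CPM in the control. All 3 overlapped between the groups, each with control replicate 3 lowest. let7C, the common precursor of mir-100, mir-let7 and mir-125, was scarce at 9.47, 11 and 7.22 CPM with swm RNAi and 6.59, 8.18 and 8.79 CPM in the control. CR43650 with mir-8 (the fly relative of the miR-200 family) and CR43314 with mir-bft averaged 2.16 ± 1.52 and 0.894 ± 0.909 CPM with swm RNAi and 5.81 ± 4.83 and 3.79 ± 2.40 CPM in the control (SD, n = 3 each), and both overlapped.

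Because 113 members lie inside another gene, each was set beside its host. The use of strand in the counting was not given in the sources used here, so reads of a member and of an antisense or surrounding gene cannot be told apart with certainty. Of the 80 members on the opposite strand, 74 share no exonic base with the exons of their host, and of the 33 on the same strand 24 share none, which places them in introns. On the same strand the log2 fold changes of 31 members and their hosts had a Pearson r of 0.59 and a Spearman rho of 0.49. On the opposite strand, over 75 pairs, these were 0.30 and 0.37. The pairs share libraries and depth, and some hosts hold more than 1 member, so these are descriptions. Hosts were called for 5 members, 2 on the same strand and 3 on the opposite one, beside 3.17% of all genes. None of those members was called. Eip63E hosts both CR45043 and CR45820, with log2 fold changes of 0.77 for the host and 0.60 and 0.0076 for the members. CR44757 had -0.26 where its host CG13506 had -0.94. CR44611 lies within Pvf2, which encodes a growth factor, on the same strand, and had 3.58, 3.66 and 2.96 CPM with swm RNAi and 0, 1.42 and 0 CPM in the control, without overlap. Its log2 fold change was 2.82 (SE 1.60, edgeR adjusted p = 0.561), where Pvf2 had 91.4 ± 16.2 CPM with swm RNAi and 25.3 ± 3.33 CPM in the control (SD, n = 3 each; log2 fold change 1.85, adjusted p = 0.000323). CR45473, antisense within tyn, had a log2 fold change of 0.53 (SE 0.50), and tyn one of 2.56.

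**Figure D3:**
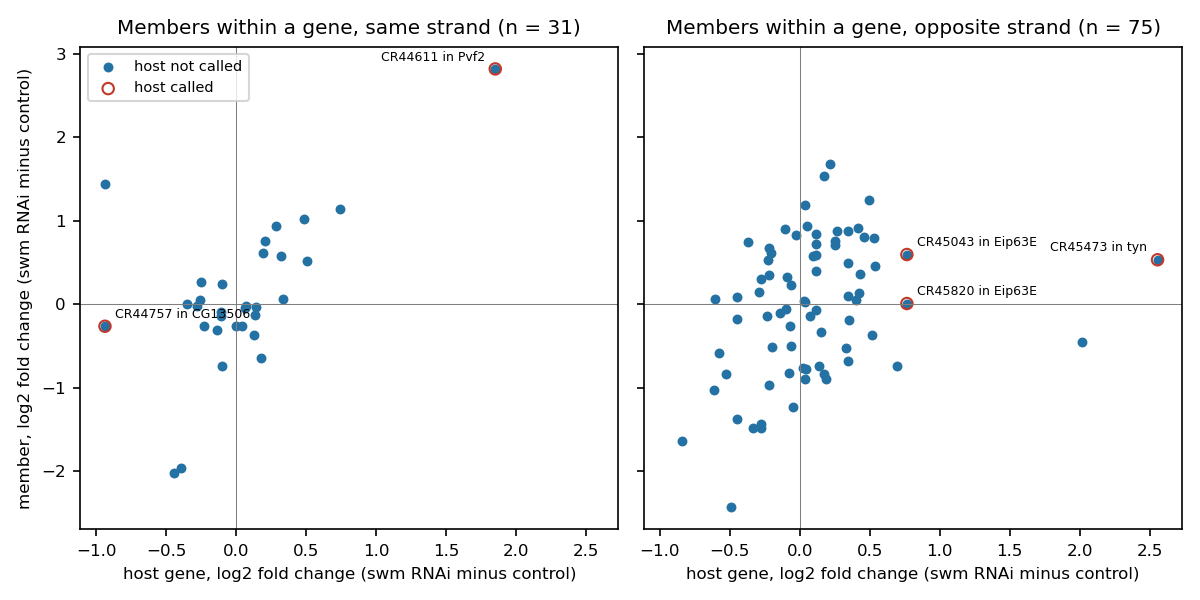
Log2 fold change (swm RNAi minus control) of members that lie wholly within another gene, against that of the host gene, for the same strand (left, n = 31) and the opposite strand (right, n = 75); circles in red mark the hosts called. CR44611 in Pvf2 is at the upper right of the left panel, and CR43604 in dachs stands at the upper left, with a host that is scarcely counted.

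In the CLIP-seq table, whether a member had counts at all went with its position. Of the 113 members wholly within another gene, 112 had 0 counts in both Swm IP libraries and the input; the exception was CR45473, with 7 and 75 counts in the Swm IP libraries and 15 in the input. Of the 64 others, 6 had none. The strand made no difference, with 33 of 33 at 0 on the same strand and 79 of 80 on the opposite one. Among protein-coding genes with at least as many RNA-seq counts as the lowest member, 686 of 692 within another gene had 0 counts, against 33 of 6954 not within one. The gene length in the CLIP-seq table equals the whole span, introns included, for 176 of the 177 members. featureCounts, which the submitters' processing notes name, leaves a read that falls in more than 1 feature uncounted unless told otherwise, and the setting used was not tested. A count of 0 there is therefore no measure of absence: CR34335, at 8999 CPM or more in each progenitor library, had 0 counts in all 3 CLIP-seq libraries. In the RNA-seq table no member had its exons wholly covered by those of other genes, a description only, since members were chosen for their counts. Among the other long noncoding RNA rows, 32 of 32 so covered had 0 counts in the 6 libraries, as had 923 of 1511 with no exonic base shared and 113 of 196 covered in part.

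**Figure D4:**
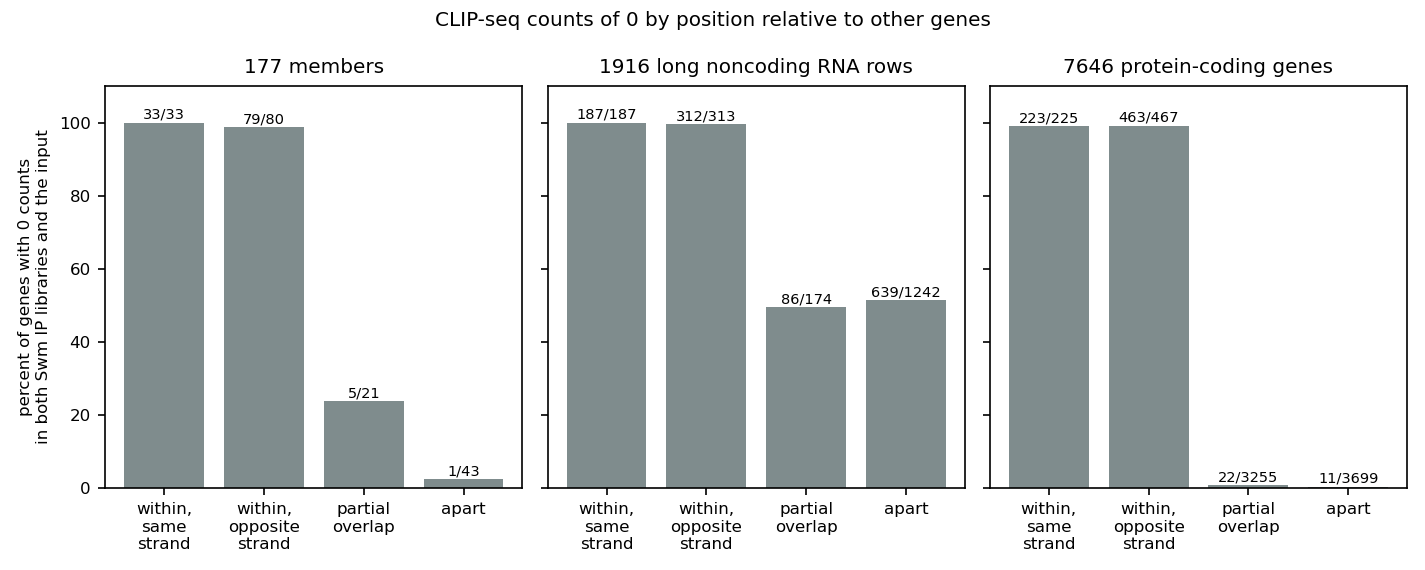
Percent of genes with 0 counts in both Swm IP libraries and the input, by position relative to other genes, for the 177 members (left), all 1916 long noncoding RNA rows (middle) and 7646 protein-coding genes with at least the RNA-seq count of the lowest member (right); the numbers over the bars give genes at 0 of all genes. Bars for genes within another gene reach 98.75% or more in each set, on both strands.

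Members took 0.360% and 0.382% of the raw Swm IP counts and 0.183% of the raw input counts. In each library 3 members held most of these, with 75.6% and 75.3% in the Swm IP libraries and 70.8% in the input. With 37 members tested, 4 were called higher in the Swm IP than in the input and none lower (edgeR adjusted p below 0.05 over 8375 genes). The higher share was 10.8% of members beside 9.27% of all genes, and 8.97% of all genes were called lower, 18.2% in all. DESeq2 called 3 members higher and none lower, beside 535 higher and 397 lower of all 8375 genes. An unadjusted p below 0.05 in the edgeR fit was found for 11 members. The share over all genes was not taken for that count, and nothing is read from it. The median log2 fold change was 0.60 for members and 0.0036 for all genes, with 24 members above 0 and 13 below. With the trend on gene length taken out, as described below, the medians were 0.20 for members and -0.077 for all genes. No mock immunoprecipitate was analysed here, and the fit rests on 1 residual degree of freedom, with the lone input assumed to vary like the Swm IP libraries.

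The RNAs called are long, and the ratio rose with gene span over all genes. Its median was -1.18 in the decile of genes with the shortest spans and 1.19 in the decile with the longest, and tested members had a median span of 4229 bases, against 3158 for all genes. CR43334, the mir-ban host, had 112 and 143 CPM in the Swm IP libraries and 46.5 CPM in the input (log2 fold change 1.46, SE 0.32, edgeR adjusted p = 0.000198). Hsromega had 1372 and 1262 CPM in the Swm IP libraries and 645 CPM in the input (1.03, SE 0.30, adjusted p = 0.00703). CR43459, the mir-277 and mir-34 host, had 175 and 187 CPM in the Swm IP libraries and 95.1 CPM in the input (0.93, SE 0.28, adjusted p = 0.00955). In all 3 both Swm IP libraries were above the input and close to each other. CR43314, the mir-bft host, was scarce in progenitors; in whole intestines, and counted over its whole span, it had 205 and 215 CPM in the Swm IP libraries and 128 CPM in the input (0.72, SE 0.27, adjusted p = 0.0451). With the length trend taken out, none of the 4 passed. CR43334, Hsromega and CR43459 then had log2 fold changes of 0.65, 0.06 and 0.44, and that of CR43314 was -0.19. In that fit 1.91% of all genes were called higher and 8.14% lower. An unadjusted p below 0.05 was found for 2 members, again without a share over all genes.

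**Figure D5:**
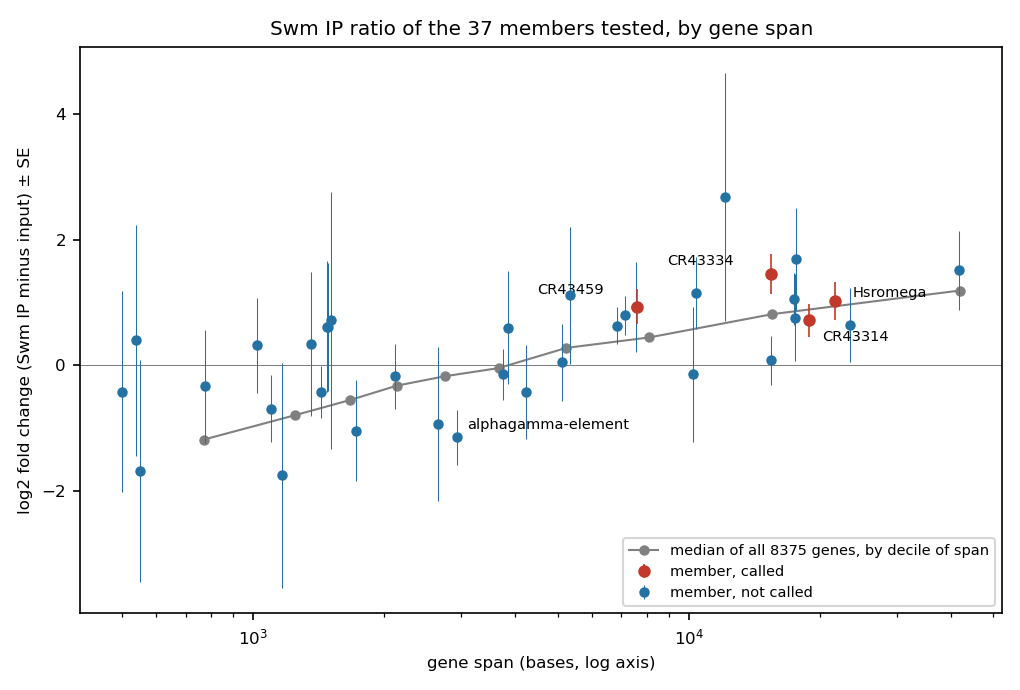
Log2 fold change (Swm IP minus input) with its SE for the 37 members tested, against gene span on a log axis; red points are the 4 members called, and the grey line joins the medians of all 8375 genes by decile of span. Members lie on both sides of the line, and their median is above it in most deciles, which hold 1 to 8 members each. The 4 called members lie at spans of 7596 bases or more, and the alphagamma-element lies below the line.

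By the rule of size, without a test, 5 members were at least 2-fold higher than the input in both Swm IP libraries, beside 11.6% of all genes, and 1 was at least 2-fold lower, beside 10.3%. The 5 were CR43334, let7C, CR44779, CR46061 and CR43174. let7C had 50.3 and 49.7 CPM in the Swm IP libraries and 24.0 CPM in the input (log2 fold change 1.06, SE 0.41, edgeR adjusted p = 0.0590). CR44779 had 15.3 and 26.4 CPM in the Swm IP libraries and 7.41 CPM in the input. CR43174 rested on 11 and 23 counts in the Swm IP libraries and 2 in the input. CR45409 was the 1 on the low side, with 4 and 6 counts in the Swm IP libraries and 14 in the input. All but CR43334 of these 6 failed the test.

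Other abundant members missed the threshold in the Swm IP. CR42862 had 987 and 1201 CPM in the Swm IP libraries and 705 CPM in the input (0.63, SE 0.29, edgeR adjusted p = 0.116), and CR45054 had 92.9 and 134 CPM in the Swm IP libraries and 65.7 CPM in the input (0.80, SE 0.31, adjusted p = 0.0567). The alphagamma-element RNA was below the input, with 18.0 and 22.7 CPM in the Swm IP libraries and 45.5 CPM in the input (-1.14, SE 0.44, adjusted p = 0.0512). Its value hardly changed with the length trend taken out, at -1.10. CR45517, which was called higher with swm RNAi, had 19 and 43 counts in the Swm IP libraries and 30 in the input, with a log2 fold change of -0.33 (SE 0.90). Of the 6 members called in progenitors, only CR43459 and CR45517 were tested in the Swm IP. CR43459 was called higher there, as were 9.27% of all genes, and lost the call with the length trend taken out (edgeR adjusted p = 0.362). CR43604 and CR46123, both within other genes, had 0 counts in the CLIP-seq libraries. CR44458 and CR44525 had 0 and 2 counts over the 3 CLIP-seq libraries.

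The roX RNAs were not members. roX1 had 3.16, 1.51 and 0.481 CPM with swm RNAi and 0, 0.539 and 0 CPM in the control, and roX2 was at 0 with swm RNAi and at 0.971, 1.86 and 0 CPM in the control. In both groups their means stayed below the level that made a member. The libraries came from female flies; in the fly the roX RNAs are made mainly in males. Genes that act on noncoding RNA were set beside the members. None of 19 nuclear exosome and surveillance genes, 10 omega speckle genes (13 listed), 6 genes of the dosage compensation complex, 12 Integrator genes (14 listed) or 13 genes of the poly(A) tail and export was called with swm RNAi, beside 3.17% of all genes, and their median log2 fold changes were 0.06, 0.02, 0.12, 0.28 and 0.18. In the Swm IP 1 of the 58 tested was called (1.72%, beside 18.2% of all genes): heph, which encodes a polypyrimidine tract binding protein and is on the omega speckle list, was higher than in the input (1.28, SE 0.33, edgeR adjusted p = 0.00174). With the length trend taken out its log2 fold change was -0.44 (SE 0.30, edgeR adjusted p = 0.462).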

How the data were processed

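RNA-seq and CLIP-seq read counts per gene, without normalization, are as the authors deposited them. Tools that the submitters' processing notes list are cutadapt 2.9 and STAR 2.7.3a with SAMtools 1.10, Subread 2.0.0, featureCounts and DESeq2. Neither the build nor the annotation nor the use of strand is given in the sources used here. Ribosomal RNA was depleted and the Ovation SoLo kit was used, per the labels' protocols. Per the file headers, a gene length in bases stands beside the counts. Log2 fold changes and adjusted p-values of the authors' deposited tables were read for the members only, so no share over all genes stands beside their counts. There, 11 of 177 members were higher and 3 lower with swm RNAi, and 1 had no adjusted p. In the Swm IP 3 of 42 were higher and 13 had no adjusted p. Their 9 per-sample columns were not used, nor was a nameless row with at most 5 counts.

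Coordinates come from the BDGP6 annotation, which matched 8998 of 9010 gene positions in the authors' deposited tables. Of the members, 174 had their symbol there and 3 were found by a synonym in the RefSeq gene table. Each count table was fitted on its own with edgeR 4.0.16 under R 4.3.3: TMM scaling, filterByExpr at a minimum count of 10, the robust quasi-likelihood test, Benjamini-Hochberg over all genes and a threshold of 0.05. The standard error is the fold change over the root of F. For the rule of size, log2 CPM had a prior count of 2. Intervals and floors cover counting error only. No label says that replicates are separate crosses, and the p-values may therefore reflect technical spread. In simulated RNA-seq counts over 8899 genes, 28 of 97 genes were recovered at a 2-fold change and 75 of 103 at a 4-fold change; in simulated Swm IP counts over 8375 genes, 8 of 101 and 46 of 99 were.

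The members, the lists and the tests were chosen with earlier results of these data known. Members named are those called; the 12 highest by CPM and 5 by RPKM; the 5 highest and 5 lowest Swm IP ratios; up to 12 uncalled members whose groups do not overlap, with a log2 fold change of 1 or more; those whose symbol is a name; those nearest the threshold; small RNA hosts and overlapping genes. CR42651, CR42491, CR45473, CR46409, CR45043, CR45820 and CR44757 were named after their values were seen. The alternatives changed the size factors, the filter, the tool (DESeq2 1.42.0), the robust option, the prior count, the cut-offs or the libraries kept, added a replicate block, or took out a loess trend (span 0.3) on gene length. That loess is robust and centred on its median; it replaced a least-squares form after the results of the first were seen, and both are given in the closing section. Same-numbered progenitor libraries did not deviate together (correlations of -0.063, -0.049 and 0.0040), so no block was used. No genome sequence was used.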

Additional observations from a re-analysis of the deposited data

How the results depend on the processing

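The members called with swm RNAi, 6 in all (5 higher, 1 lower), became 15 with DESeq2 (11 and 4) and 15 with no filter on low counts (10 and 5). Of all 8899 genes, the main fit called 208 higher and 74 lower, and DESeq2 320 and 149. With no filter 351 and 176 of 12956 genes were called. The members called ranged from 5 to 11 when 1 library was left out (4 to 10 higher, 1 to 2 lower). There were 10 without control replicate 1 and 11 without control replicate 2. Over all genes, leaving out 1 library gave 114 to 276 higher and 24 to 116 lower, with 196 and 68 without control replicate 2. With the replicate block 7 members were called, 6 higher and 1 lower, beside 211 and 76 of all genes. The libraries share only a number. The 4 members called in the Swm IP became 8 with library sizes alone (where the median over all genes was 0.29 on the log2 scale), 7 with a minimum count of 50 (1 of them lower) and 0 with the length trend removed. At a minimum count of 50, 754 of all 5878 genes were called higher and 741 lower. The length trend was first taken out with a least-squares loess that was not centred; the robust, centred loess replaced it after those results were seen, and is the form meant elsewhere. In the first form 11 members were called with swm RNAi, 5 higher and 6 lower, and 0 in the Swm IP. It moved the median of all genes to -0.17 with swm RNAi, where 169 genes were called higher and 170 lower, against 224 and 95 in the robust form and 208 and 74 with the trend left in. In the Swm IP it called 142 genes higher and 560 lower, against 160 and 682 in the robust form, 776 and 751 with the trend left in and 1114 and 425 with library sizes alone. No paired analysis was possible for the Swm IP because the groups share 1 number. By the rule of size, 5 higher and 1 lower members became 8 and 0 with library sizes alone. At 1.5-fold they were 9 and 4, and at 3-fold 1 and 0. With 1 Swm IP library left out, 9 were higher (range 9 to 9) and 2 to 6 lower. With a minimum count of 50 none was lower. The share over all genes was taken only for the 2-fold rule in the main scaling (11.6% higher and 10.3% lower). These shifts are therefore not read as a property of the members. The 177 members would be 266 at 1 CPM, 84 at 5 CPM and 116 if both groups had to reach 2 CPM.

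Some fold changes turned in sign. With swm RNAi, CR34335 was at -0.0040 with library sizes alone and -0.011 with the length trend removed. The least-squares form gave -0.30 for CR34335, -0.029 for CR42862, -0.016 for CR43651 and -0.075 for the alphagamma-element. Leaving out 1 library, CR34335 ranged from -0.092 to 0.29, CR42549 from -0.18 to 0.11, CR42862 from -0.068 to 0.39 and the alphagamma-element from -0.19 to 0.54. In the Swm IP the length trend removed gave -0.25 for CR31044, -0.19 for CR43314 (0.72 with the trend left in), 0.076 for CR43651 (-0.69 with the trend left in), 0.092 for CR43857 (0.11 with library sizes alone), 0.73 for CR45517 and -0.11 for CR45668 (0.76 with the trend left in). There the least-squares form gave -0.18 for CR31044, -0.23 for CR43314, 0.092 for CR43651, 0.13 for CR43857, 0.69 for CR45517 and -0.14 for CR45668. Leaving out 1 Swm IP library, values ranged from -0.45 to 0.14 for CR43857, from -0.25 to 1.18 for CR44953, from -0.31 to 0.83 for CR45215 and from -0.61 to 0.018 for CR45517. The cause was not tested.

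Most members were scarce: 132 of 177 averaged under 10 CPM. In simulated counts for swm RNAi, 28 of 97 2-fold changes were recovered over all genes, which is not a rate for the members. Whether depth limited the calls among members was not tested.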

Other observations

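Members within the same few kilobases were compared as values, in 3 of 10 neighbouring pairs, chosen after their values were seen. CR45993 and CR45994 lie 94 bases apart on opposite strands of 2R, with log2 fold changes (swm RNAi minus control) of -0.14 and -0.03. CR45118 and CR45117 lie 92 bases apart on the same strand of 3L, with 0.31 and -1.44. CR42651, the mir-10 host, overlaps CR45915 on the opposite strand, with -0.84 and -1.64. None of these members passed the test, and differences within a pair were not tested.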
